A study of Homo sapiens with 6 samples.

Results

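The transcripts examined here were those of 39 genes of the apoptosis machinery, comprising BCL2 family members, caspases with their activators and inhibitors, and death receptors with their adaptors. They were picked by gene symbol from the 60671 gene rows of the count data, and all 39 symbols were found there. The rule uses no measured value, but the list was drawn up with earlier results of these data known, and the family member *BCL2L1* is not among the 39. Expression was measured by 3′ mRNA sequencing, whose reads fall close to the poly(A) tail, in a single clone of K562, a human chronic myeloid leukemia line. The clone carries a fusion of Lamin B1 to the GpC methyltransferase M.CviPI, with a Flag tag and a nuclear localization signal, that doxycycline switches on. There were 3 cultures treated with vehicle (DMSO at 0.1% v/v) and 3 treated with the EZH2 inhibitor GSK343 at 1 µM (EZH2i). Both groups were treated for 72 h and received doxycycline at 1 µg/mL for the final 24 h, so the controls carry and express the fusion too.

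Apoptosis proceeds by 2 routes. In the mitochondrial route, BH3-only proteins bind and neutralize pro-survival proteins such as BCL2 and MCL1 or directly engage BAX and BAK1, which then permeabilize the outer mitochondrial membrane, and released cytochrome c assembles with APAF1 and caspase-9 into the apoptosome. In the receptor route, FAS or the TRAIL receptors recruit FADD and caspase-8, which CFLAR restrains, while the inhibitor of apoptosis (IAP) proteins act on caspases downstream or on receptor signaling. K562 cells carry the BCR-ABL1 fusion, lack functional p53, and are known for their resistance to many inducers of apoptosis, and EZH2 is the enzyme of Polycomb repressive complex 2 that deposits H3K27me3.

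Of the 39 genes, 30 passed the expression filter (edgeR's, with a minimum count of 10) and 0 were called changed after EZH2 inhibition at an adjusted p under 0.05 (edgeR's quasi-likelihood F-test, Benjamini-Hochberg over the 12364 genes tested). Over all of those genes 4.26% were called, 3.34% higher and 0.922% lower. At an unadjusted p under 0.05 in the same test there were 3 of the 30, *BNIP3*, *BIRC3* and *BIRC6*, against 19.1% of all genes tested. With DESeq2 the count of these genes called was 0 as well, where 3.13% of all genes with an adjusted p were called. The median log2 fold change was -0.0135 over the 30 genes, 14 of them above 0 and 16 below, and -0.0002 over all genes tested. All 3 EZH2i libraries lay on the same side of all 3 DMSO libraries for 6 of the 30 genes, 4 higher and 2 lower, where the share over all genes tested was 24.5%, 13.3% higher and 11.1% lower. In bulk cultures, a smaller share of cells expressing a gene and less RNA per cell cannot be told apart.

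**Figure D1:**
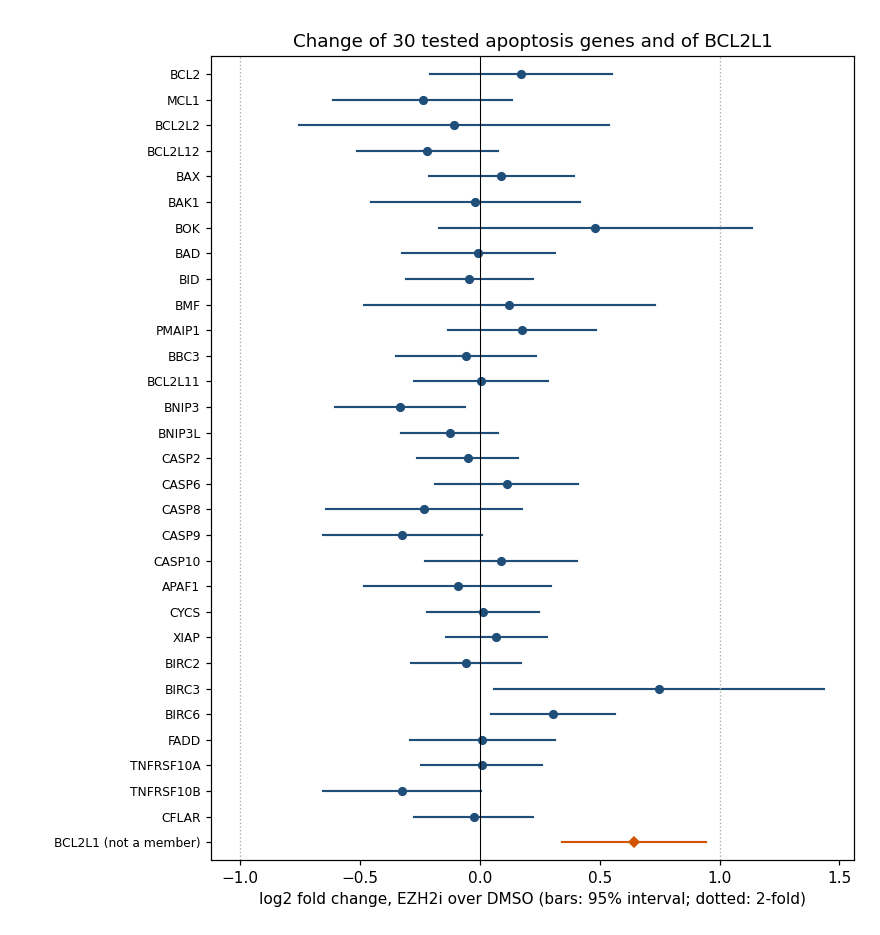
Log2 fold change of EZH2i over DMSO (x axis) for each of the 30 tested genes (blue circles) and for *BCL2L1*, a pathway gene outside the list of 39 (orange diamond), with bars for the 95% interval from edgeR's fit and dotted lines at 2-fold. Most intervals cross 0; those of *BNIP3*, *BIRC3*, *BIRC6* and *BCL2L1* do not, and only *BCL2L1* passed the adjusted threshold.

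The libraries held 6327544 to 8987768 reads on genes, 63.6% to 67.9% of the reads listed; EZH2i replicate 3 had 12.7% of its reads outside annotated genes, against 7.43% to 8.51% in the others. The 95% intervals of the log2 fold changes lay within 2-fold in either direction for 28 of the 30 genes, the exceptions being *BOK* and *BIRC3*, and within 1.5-fold for 21; over all genes tested, 83.7% lay within 2-fold. For the 5 of these genes with a mean of 10 to 100 reads per library the interval reached a median of 0.65 to either side of the estimate on the log2 scale, and for the 20 with 100 to 1000 reads it was 0.30; over all genes tested in those ranges it was 0.602 and 0.281. It was 0.29 for the 5 with 1000 reads or more, against 0.223 over all genes, and there *MCL1* had 0.374, so the intervals hold replicate spread as well as counting error. Expression is given below as CPM, counts relative to the TMM-scaled library size, not divided by transcript length, so levels are compared between libraries and not between genes.

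**Figure D2:**
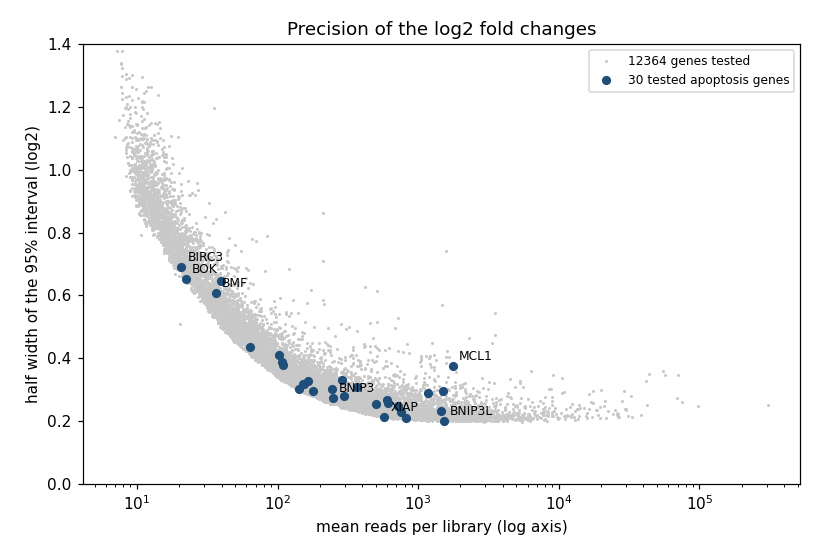
Reach of the 95% interval to either side of the estimate of the log2 fold change (y axis) against mean reads per library (x axis, log scale) for all 12364 genes tested (gray) and the 30 apoptosis genes (blue). The blue points follow the gray band, with *BIRC3* and *BOK* widest, and *MCL1*, at 0.374, lies above the median of 0.223 for genes with 1000 reads or more and inside their range of 0.198 to 0.74.

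The libraries took unequal shares of the extreme values of these genes. EZH2i replicate 1 was the lowest of the 6 libraries for 11 of the 30 genes (36.7%) and the highest for 2 (6.67%), where over all genes tested it was lowest for 24.3% and highest for 23.9%. EZH2i replicate 2 was the lowest for 0 of the 30 and the highest for 9, against shares of 12.8% and 12.5% over all genes tested. As either extreme, DMSO replicate 2 and EZH2i replicate 1 each held 43.3% of the 30 genes, against 34.9% and 48.1% over all genes tested. Each tested gene was refitted without each library in turn, and values without a library are given beside several results.

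**Figure D3:**
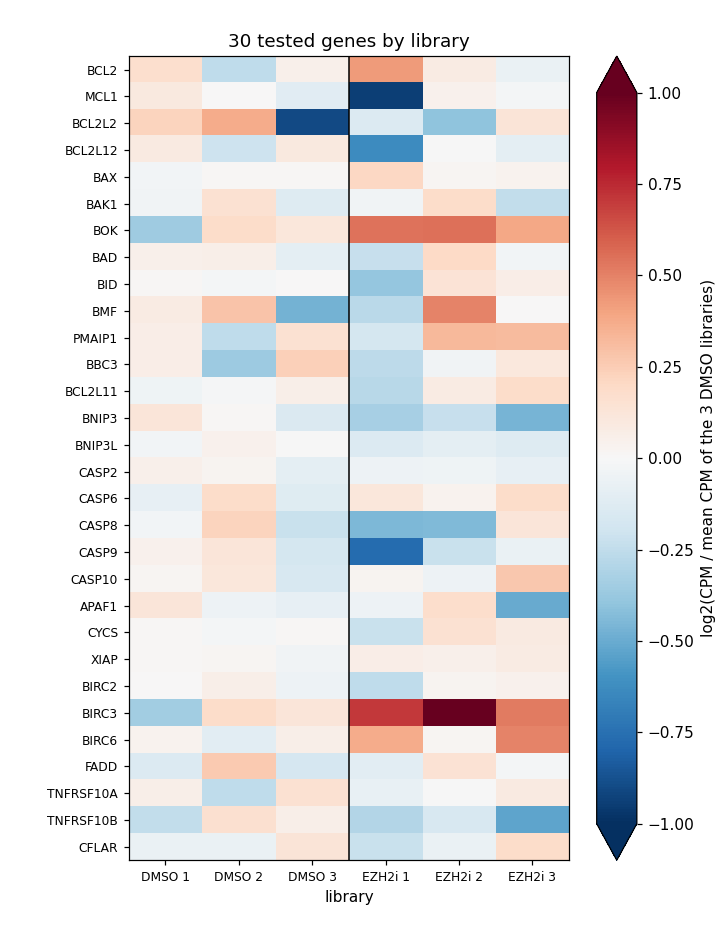
Log2 ratio of each library's CPM to the mean of the 3 DMSO libraries (color) for the 30 tested genes (rows) in the 6 libraries (columns). The lowest values of *MCL1*, *BCL2L12*, *BID* and *CASP9* are in EZH2i replicate 1 alone, while *BNIP3* is below and *BOK* and *BIRC3* are above the DMSO mean in every EZH2i library.

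The pro-survival group held 6 genes, of which 4 were tested and 0 changed. *MCL1* (ENSG00000143384; chromosome 1 of GRCh38, 150560895 to 150579738), which encodes a short-lived guardian that sequesters BH3-only proteins, was at 267, 251 and 231 CPM in the DMSO libraries and at 130, 258 and 247 CPM in the EZH2i libraries. EZH2i replicate 1 was thus low while the other EZH2i libraries lay within the DMSO range. The log2 fold change was -0.24 with all libraries (95% interval -0.61 to 0.14, adjusted p = 0.497, edgeR) and 0.02 without EZH2i replicate 1 (adjusted p = 0.95, edgeR). *BCL2L12* was at 224, 182 and 225 CPM in DMSO and at 136, 209 and 196 CPM in EZH2i, again with a single low library. Its log2 fold change of -0.22 (adjusted p = 0.412, edgeR) became -0.05 without that library (adjusted p = 0.861, edgeR).

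*BCL2*, the founding member of the family, encodes a protein anchored in the outer mitochondrial membrane. *BCL2* had 13.6 ± 2.01 CPM with DMSO and 15.2 ± 2.73 with EZH2i (SD, n = 3 per group). Its log2 fold change of 0.17 was 0.02 without EZH2i replicate 1 and 0.06 without DMSO replicate 2. *BCL2L2*, which encodes BCL-W, had 5.50 ± 2.23 and 5.06 ± 0.928 CPM (SD, n = 3 per group), and its lowest value was in DMSO replicate 3. *BCL2A1*, an NF-κB target of myeloid cells, had 1 read in all 6 libraries together, and *BCL2L10* had 0 reads in every library. A count of 0 allows up to 3 reads, which is 0.34 to 0.469 CPM depending on the library.

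Of the membrane-permeabilizing effectors, all 3 were tested and 0 changed. *BAX* was at 17.8, 18.2 and 18.2 CPM in DMSO and at 20.9, 18.3 and 18.5 in EZH2i. The groups did not overlap, but the lowest EZH2i library exceeded the highest DMSO library by a margin far smaller than the spread of the EZH2i libraries (SD 1.43, n = 3), and the log2 fold change was 0.09 (95% interval -0.21 to 0.39, adjusted p = 0.79, edgeR), or 0.03 without EZH2i replicate 1. *BOK*, an effector less dependent on the other family members, was at 1.88, 2.73 and 2.61 CPM in DMSO and at 3.52, 3.53 and 3.15 in EZH2i. Every EZH2i library was above every DMSO library, the log2 fold change was 0.48, and the interval of -0.17 to 1.13 (adjusted p = 0.418, edgeR) was among the widest, with 12 to 28 reads per library. *BAK1* had 8.33 ± 0.847 CPM with DMSO and 8.20 ± 1.22 with EZH2i (SD, n = 3 per group), with overlapping groups.

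The BH3-only group held 8 genes, of which 6 were tested and 0 changed, with log2 fold changes from -0.06 to 0.18. *BBC3*, which encodes the p53-inducible protein PUMA, was at 163, 121 and 184 CPM in DMSO and at 130, 152 and 168 in EZH2i, all EZH2i values inside the DMSO range. *BCL2L11*, which encodes BIM, a FOXO3 target that binds all pro-survival proteins, was at 37.8, 38.5 and 40.5 CPM in DMSO and at 32.1, 41.1 and 44.1 in EZH2i. Its log2 fold change was 0.00 at this rounding, with a 95% interval of -0.27 to 0.28, so that a change beyond about that size in either direction lay outside the interval.

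*PMAIP1* encodes NOXA, which binds MCL1 and promotes its turnover. It was at 47.2, 37.9 and 50.2 CPM in DMSO and at 40.0, 56.4 and 56.3 in EZH2i. EZH2i replicates 2 and 3 lay above every DMSO library and replicate 1 inside the DMSO range; the log2 fold change of 0.18 (adjusted p = 0.558, edgeR) became 0.33 without EZH2i replicate 1 (adjusted p = 0.155, edgeR). It fell to 0.06 without DMSO replicate 2 (adjusted p = 0.89, edgeR), and to 0.09 and 0.10 without EZH2i replicates 2 and 3. *BMF*, a sensor of cytoskeletal and detachment stress, was at 4.85, 5.58 and 3.29 CPM in DMSO and at 3.79, 6.43 and 4.58 in EZH2i, with the groups overlapping throughout. *BID*, which caspase-8 cleaves to connect the receptor route with mitochondria, had 79.1 ± 1.08 CPM with DMSO and 76.7 ± 14.2 with EZH2i (SD, n = 3 per group), and *BAD*, the target of survival kinases, had 20.3 ± 1.21 and 20.2 ± 3.01 CPM (SD, n = 3 per group). In both, EZH2i replicate 1 was the lowest library.

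The other BH3-only genes, *BIK* and *HRK*, were under the expression filter. *BIK* had 0, 1 and 7 reads in the DMSO libraries and 9, 10 and 6 in the EZH2i libraries, 8 reads against 25 in all. After scaling, every EZH2i library was above every DMSO library, at 0.859 to 1.26 CPM against 0 to 0.794 CPM. In a fit without a filter on low counts the unadjusted p from edgeR was 0.0201 and the adjusted p was 0.241. *HRK*, a neuronal BH3-only gene, had 3, 8 and 3 reads in DMSO and 9, 10 and 5 in EZH2i, and these groups overlapped after scaling (adjusted p = 0.663 without the filter, edgeR).

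**Figure D4:**
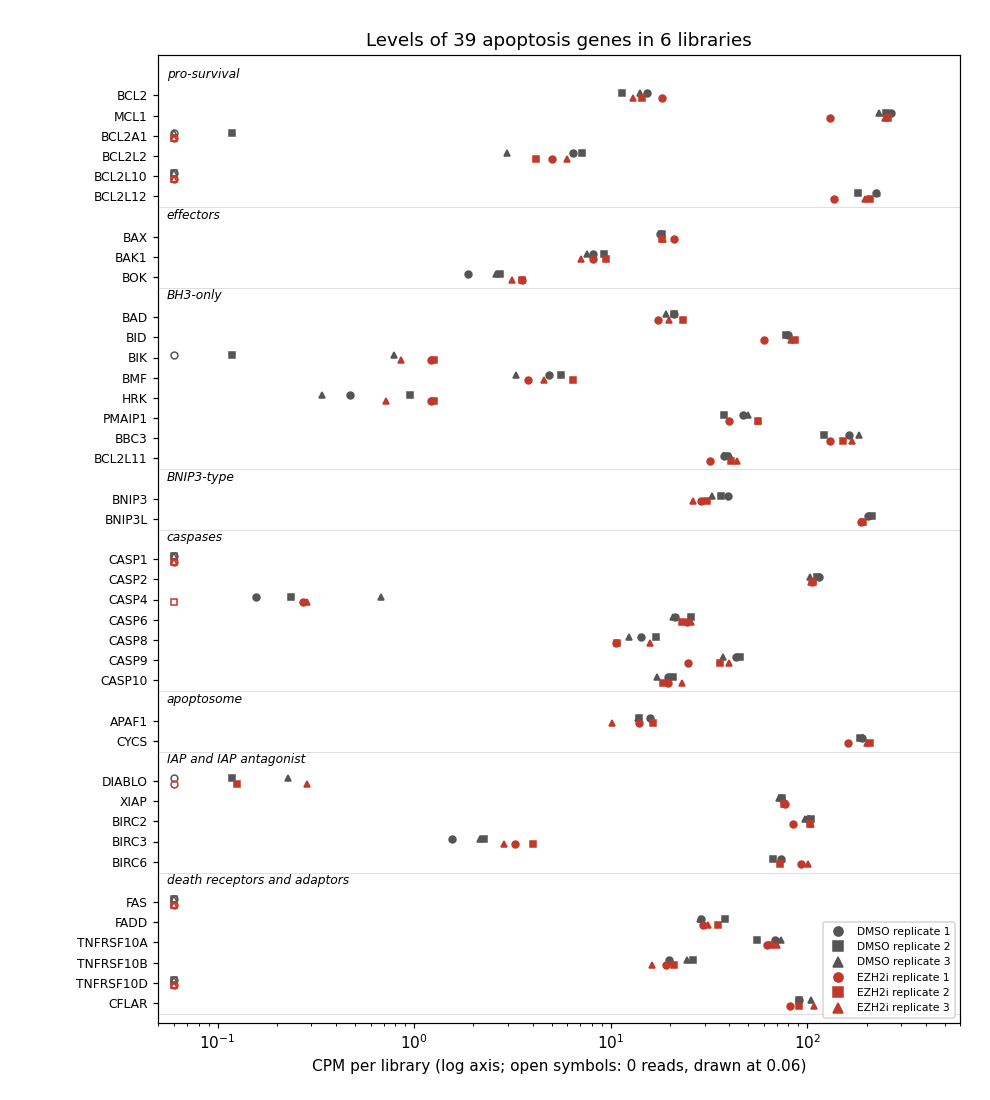
CPM (x axis, log scale) of each of the 39 genes in the 6 libraries, DMSO in gray and EZH2i in red, with replicates by symbol shape and open symbols for 0 reads. In most rows the red and gray symbols interleave; *CASP1*, *FAS*, *BCL2L10* and *TNFRSF10D* had 0 reads in all 6 libraries.

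*BNIP3* and *BNIP3L* encode BH3-containing mitochondrial receptors better known for mitophagy, which hypoxia and erythroid maturation induce. Both were lower in every EZH2i library than in every DMSO library, though neither passed the adjusted threshold. *BNIP3* (ENSG00000176171; chromosome 10 of GRCh38, 131967684 to 131981967) was at 39.3, 36.4 and 32.8 CPM in DMSO and at 28.7, 30.9 and 26.2 in EZH2i, a log2 fold change of -0.33 (standard error 0.129, 95% interval -0.61 to -0.06, adjusted p = 0.159, edgeR). This was the smallest adjusted p of the 30 genes. It stayed between -0.40 and -0.28 when each replicate was omitted in turn (6 fits), with adjusted p from 0.16 to 0.391 in edgeR's test. *BNIP3L* was at 203, 213 and 206 CPM in DMSO and at 188, 193 and 189 in EZH2i, a log2 fold change of -0.13 (95% interval -0.33 to 0.07, adjusted p = 0.502, edgeR). The 3′ end of *BNIP3L* overlaps exons of *PNMA2* on the opposite strand, and the strand setting of the counting is not stated.

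The sequence upstream of *BNIP3* is shown because this gene came closest to the threshold in the main edgeR fit. In some alternatives another gene did, such as *BIRC6* without EZH2i replicate 2. It lies at chr10:131981968-131982173 on the minus strand of GRCh38.p14, from RefSeq, and stops at the first annotated exon base. Capitals mark the letters ACGTG, a form of the hypoxia response element core, or their reverse complement CACGT, which overlap here in a palindrome. The other form of the core, GCGTG, was neither marked nor counted.
BNIP3: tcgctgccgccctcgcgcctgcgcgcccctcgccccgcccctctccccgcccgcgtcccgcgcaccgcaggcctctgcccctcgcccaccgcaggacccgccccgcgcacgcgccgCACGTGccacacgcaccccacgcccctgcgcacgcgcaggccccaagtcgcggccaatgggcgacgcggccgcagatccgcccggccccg
ACGTG or CACGT occurred in the 250 bases before the start for 8 of the 29 genes with a RefSeq promoter (27.6%). The share was 18.7% of all promoters, and a match describes the sequence only. Both motifs hold a CG, and the 24 tested genes had a median of 26 CG there against 11 in all promoters. The shares are not adjusted for this.

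Of the 7 caspases, 5 were tested and 0 changed. *CASP2*, the caspase of the PIDDosome that responds to DNA damage and extra centrosomes, was at 114, 112 and 103 CPM in DMSO and at 106, 107 and 104 in EZH2i, with a log2 fold change of -0.05 (95% interval -0.26 to 0.16, adjusted p = 0.832, edgeR). *CASP9*, the initiator of the mitochondrial route, was at 43.3, 45.7 and 37.2 CPM in DMSO and at 24.7, 36.1 and 40.1 in EZH2i. EZH2i replicate 1 was the lowest and replicate 3 lay inside the DMSO range, and the log2 fold change of -0.32 (95% interval -0.66 to 0.01, adjusted p = 0.271, edgeR) was -0.14 without EZH2i replicate 1 (adjusted p = 0.611, edgeR).

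*CASP8*, the initiator of the receptor route, had 14.5 ± 2.26 CPM with DMSO and 12.3 ± 2.95 with EZH2i, and its paralog *CASP10* had 19.2 ± 1.79 and 20.4 ± 2.36 CPM (SD, n = 3 per group). The executioner *CASP6* ranged from 20.7 to 25.6 CPM with DMSO and from 23.1 to 25.6 with EZH2i. All 3 of these genes had overlapping groups. The inflammatory caspase gene *CASP1* had 0 reads in every library and *CASP4* had 9 reads in DMSO and 4 in EZH2i (adjusted p = 0.663 without the filter on low counts, edgeR).

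The apoptosome genes did not pass the test. *CYCS*, which encodes cytochrome c, was at 190, 185 and 190 CPM in DMSO and at 161, 209 and 200 in EZH2i. The EZH2i libraries lay on both sides of the narrow DMSO range, and the log2 fold change was 0.01 (95% interval -0.22 to 0.24, adjusted p = 0.971, edgeR). *APAF1*, the scaffold that cytochrome c oligomerizes, had 14.5 ± 1.12 and 13.5 ± 3.14 CPM (SD, n = 3 per group); its 3′ end overlaps exons of *ANKS1B* on the opposite strand.

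Among the IAP genes and their antagonist, 4 of 5 were tested, 0 changed, and 3 of the 4 had a log2 fold change above 0. *BIRC3* (ENSG00000023445; chromosome 11 of GRCh38, 102317484 to 102339403), which encodes cIAP2, an NF-κB-inducible ubiquitin ligase of TNF receptor complexes, was at 1.56, 2.26 and 2.16 CPM in DMSO and at 3.25, 4.04 and 2.86 in EZH2i. Every EZH2i library was above every DMSO library, with 10 to 19 reads in DMSO and 20 to 32 in EZH2i. The log2 fold change of 0.75 was the largest of the 30 genes (standard error 0.327, 95% interval 0.06 to 1.44, adjusted p = 0.22, edgeR).

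*BIRC6*, which encodes a very large ubiquitin ligase that acts on caspases and DIABLO and was named after its values were seen, was at 73.5, 66.7 and 74.4 CPM in DMSO and at 92.4, 72.4 and 101 in EZH2i. EZH2i replicates 1 and 3 were above every DMSO library and replicate 2 was inside the DMSO range. The log2 fold change was 0.31 with all libraries (95% interval 0.05 to 0.56, adjusted p = 0.175, edgeR). With each replicate omitted in turn it ranged from 0.20 to 0.43, with the lowest adjusted p of 0.0669 without EZH2i replicate 2 (edgeR).

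*XIAP*, which encodes the IAP that binds active caspases directly, was at 73.8, 74.2 and 71.6 CPM in DMSO and at 76.8, 76.0 and 77.3 in EZH2i. The groups did not overlap, yet the log2 fold change was only 0.07 (95% interval -0.14 to 0.28, adjusted p = 0.769, edgeR). *BIRC2*, which encodes cIAP1, was at 101, 105 and 97.4 CPM in DMSO and at 84.5, 103 and 104 in EZH2i, with overlapping groups.

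*DIABLO*, which encodes the mitochondrial antagonist of the IAPs, had 3 reads in DMSO and 3 in EZH2i. This count is uncertain: 31.5% of its exon bases, and all of the last 500 at its 3′ end, are shared with another annotated gene on the same strand (ENSG00000284934), which had 0 reads in every library. A low level and reads set aside as ambiguous cannot be told apart here.

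Of the 6 genes for death receptors and their adaptors, 4 were tested and 0 changed. *CFLAR*, which encodes the caspase-8 inhibitor c-FLIP, was at 91, 90.7 and 104 CPM in DMSO and at 81.8, 90.8 and 108 in EZH2i, with a log2 fold change of -0.03 (95% interval -0.27 to 0.22, adjusted p = 0.935, edgeR). *TNFRSF10A*, which encodes TRAIL receptor DR4, had 65.8 ± 9.33 CPM with DMSO and 66.1 ± 3.67 with EZH2i, and *FADD*, the shared adaptor, had 31.8 ± 5.51 and 32.0 ± 2.88 CPM (SD, n = 3 per group). Of the last 500 exon bases at the 3′ end, 411 of *FADD*, 224 of *TNFRSF10A*, 268 of *BAD*, 98 of *CASP6* and 37 of *CASP9* overlap exons on the opposite strand, and 328 of *MCL1* overlap *ADAMTSL4-AS1* on its own strand, so their counts carry the same limit.

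*TNFRSF10B*, which encodes TRAIL receptor DR5 and was named after its values were seen, was at 19.7, 26.2 and 24.4 CPM in DMSO and at 19.1, 20.9 and 16.2 in EZH2i. The groups overlapped by DMSO replicate 1, and the log2 fold change was -0.33 (95% interval -0.66 to 0.00, adjusted p = 0.263, edgeR). Its 3′ end overlaps exons of *RHOBTB2* on the opposite strand. *FAS* and the decoy receptor gene *TNFRSF10D* had 0 reads in all 6 libraries, below the limit given above in both groups.

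Summed over each role group, 2 of the 8 groups had EZH2i and DMSO libraries that did not overlap. Among all genes tested, taken singly, that share was 24.5%. The *BNIP3*-type genes summed to 239 to 249 CPM in DMSO and 215 to 224 in EZH2i, a ratio of 0.897. The IAP group summed to 246 to 249 CPM in DMSO and 255 to 285 in EZH2i, a ratio of 1.07, of which *BIRC6* held the larger part of the difference. The pro-survival sum was 479 ± 31.6 CPM with DMSO and 412 ± 107 with EZH2i (SD, n = 3 per group), and the EZH2i spread came from replicate 1, at 289 CPM, against 486 and 462 CPM in replicates 2 and 3. The BH3-only sum was 345 ± 38.2 and 344 ± 50.4 CPM (SD, n = 3 per group). No test was made on these sums.

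**Figure D5:**
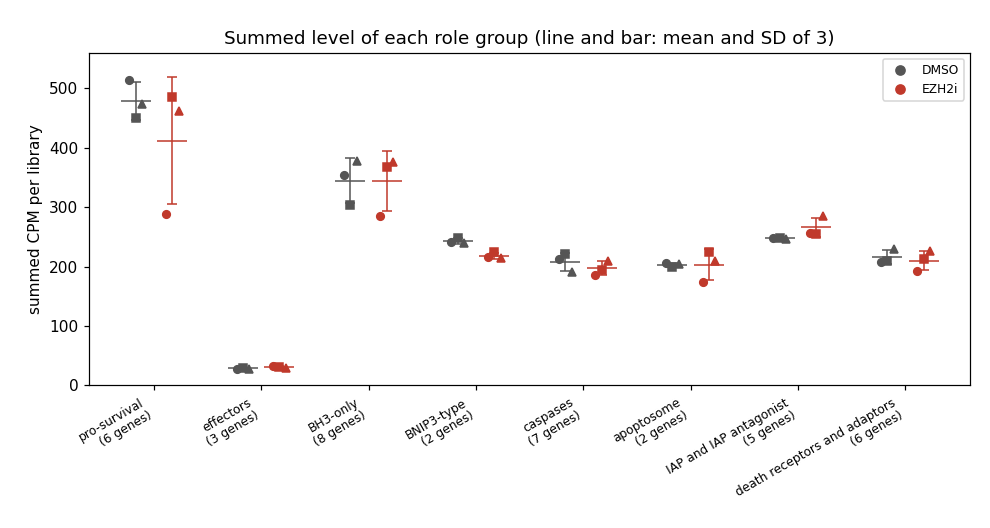
Summed CPM per library (y axis) of the genes in each role group (x axis), DMSO in gray and EZH2i in red, with symbols for replicates and a line with bars for the mean and SD of 3 libraries. The *BNIP3*-type sum is lower and the IAP sum higher in every EZH2i library, and the pro-survival sum of EZH2i replicate 1, at 289 CPM, lies apart from the others.

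The 9 genes under the filter had at most 10 reads in any library of either group. RefSeq promoters were at hand for 29 of the 39 genes, 5 of them under the filter. In the 250 bases before the start, the 24 tested genes had a median of 26 CG dinucleotides, the sites where DNA methylation is placed and which cluster in CpG islands, and a range of 4 to 41. The promoters of all genes tested had a median of 21, and all RefSeq promoters one of 11, while the share with 10 or more CG was 79.2% of the 24 genes and 87.5% of all genes tested. The 5 genes under the filter ranged from 2 to 22: *HRK* and *DIABLO* had 22 each, *FAS* 14, and *BCL2A1* and *CASP4* 2 each. The extremes are shown, both on the minus strand of GRCh38.p14 from RefSeq, at chr12:116881442-116881691 for *HRK* and chr15:79971197-79971446 for *BCL2A1*, with CG in capitals.
HRK: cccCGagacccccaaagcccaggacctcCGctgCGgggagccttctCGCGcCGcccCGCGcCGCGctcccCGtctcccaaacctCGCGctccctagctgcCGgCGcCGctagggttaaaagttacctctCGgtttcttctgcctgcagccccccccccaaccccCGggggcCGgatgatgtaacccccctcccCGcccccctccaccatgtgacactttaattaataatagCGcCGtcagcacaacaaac
BCL2A1: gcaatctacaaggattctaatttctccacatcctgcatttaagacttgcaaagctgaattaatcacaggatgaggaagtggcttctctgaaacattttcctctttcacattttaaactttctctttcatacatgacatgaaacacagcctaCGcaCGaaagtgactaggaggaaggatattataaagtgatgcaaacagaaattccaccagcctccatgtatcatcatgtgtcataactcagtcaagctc

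A list of 50 other genes of the pathway held 36 that were tested. Of the 36, 1 was called higher and 0 lower, against 3.34% and 0.922% of all genes tested. The gene called was *BCL2L1* (ENSG00000171552; chromosome 20 of GRCh38, 31664452 to 31723989), which encodes BCL-XL, a pro-survival protein induced during erythroid differentiation and by STAT5. It was at 74.4, 79.4 and 99.0 CPM in DMSO and at 158, 104 and 133 in EZH2i. Every EZH2i library was above every DMSO library, and *BCL2L1* rose with a log2 fold change of 0.64 (standard error 0.142, 95% interval 0.34 to 0.94, adjusted p = 0.0167, edgeR). The call was lost without DMSO replicate 1 (log2 fold change 0.56, adjusted p = 0.104, edgeR) and without DMSO replicate 2 (0.60, adjusted p = 0.0952, edgeR). Without EZH2i replicate 1, its highest library, the log2 fold change was 0.49 (adjusted p = 0.0264, edgeR). The antisense RNA *ABALON* overlaps its exons and had 1 read in all. Mean *STAT5A* was 111 CPM with DMSO and 91.3 CPM with EZH2i. Its groups overlapped, and its lowest value, 63.7 CPM, was in EZH2i replicate 1. Mean *STAT5B* was 80.4 and 74.4 CPM, with every EZH2i library below every DMSO library. Neither *STAT5A* nor *STAT5B* was called, and a part of STAT5 in the rise of *BCL2L1* was not tested.

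The other genes of that list with the largest log2 fold changes did not pass the test. *TNFRSF21*, which encodes death receptor 6, was at 2.82, 0.831 and 2.84 CPM in DMSO and at 3.52, 3.28 and 4.73 in EZH2i. Its log2 fold change of 0.84 (adjusted p = 0.246, edgeR) was 0.44 without the low DMSO replicate 2 (adjusted p = 0.601, edgeR). The gasdermin gene *GSDME* was at 2.03, 1.66 and 2.16 CPM in DMSO and at 2.84, 3.53 and 2.29 in EZH2i, also without overlap (log2 fold change 0.57, adjusted p = 0.376, edgeR). The apoptotic nuclease gene *DFFB* was at 23.9, 19.8 and 20.3 CPM in DMSO and at 10.3, 17.4 and 19.0 in EZH2i. Its lowest value was again in EZH2i replicate 1, without which the log2 fold change of -0.45 (adjusted p = 0.207, edgeR) was -0.22. The necroptosis effector gene *MLKL* was at 3.91, 2.85 and 3.40 CPM in DMSO and at 5.69, 3.15 and 4.58 in EZH2i, with overlapping groups. Its log2 fold change of 0.41 (adjusted p = 0.496, edgeR) was 0.20 without EZH2i replicate 1 (adjusted p = 0.825, edgeR).

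A list of 16 upstream regulators, all tested, held 0 genes called with edgeR and 0 with DESeq2, and 4 (25.0%, against 19.1% of all genes tested) had an unadjusted p under 0.05 in edgeR's test. The stress factor gene *DDIT3*, which encodes CHOP, an activator of DR5 transcription, had 29.4 ± 1.53 CPM with DMSO and 20.6 ± 4.8 with EZH2i (SD, n = 3 per group), with the lowest value in EZH2i replicate 3 (log2 fold change -0.51, adjusted p = 0.0864, edgeR). The p53 antagonist gene *MDM2* had 55.5 ± 2.09 CPM with DMSO and 71.2 ± 5.73 with EZH2i, and the p53 family gene *TP73* had 16.1 ± 2.5 and 22.5 ± 0.875 CPM (SD, n = 3 per group). Their log2 fold changes were 0.36 and 0.47 (adjusted p = 0.0716 and 0.0903, edgeR). The log2 fold change of *CEBPB* was -0.33 (adjusted p = 0.116, edgeR). In all 4 of these genes the groups did not overlap, as in 5 of the 16 (31.2%) and 24.5% of all genes tested. *DDIT3* shares exon bases with other genes on both strands, *MARS1* among them. *DDIT3* and *MDM2* passed the threshold without EZH2i replicate 1, with adjusted p of 0.0381 and 0.0382 in edgeR's test, and *DDIT3* also without the filter on low counts (adjusted p = 0.0222, edgeR). Without EZH2i replicate 3 the log2 fold change of *DDIT3* was -0.33 (adjusted p = 0.254, edgeR), and without EZH2i replicate 2 that of *MDM2* was 0.29 (adjusted p = 0.23, edgeR). The adjusted p from DESeq2 was 0.117 for *DDIT3* and 0.131 for *MDM2*.

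The labelled cell type was checked on 11 erythroleukemia markers. Of these, 10 passed the filter, including *GATA1*, *KLF1*, *TAL1* and *TFRC*, and the exception was *HBE1*, 90.0% of whose exon bases are shared with other genes on its strand. Their summed level was 959 to 1080 CPM in DMSO and 1090 to 1200 CPM in EZH2i, and *HBZ*, *HBG2* and *ALAS2* were called higher. *HBZ* and *HBG2* also share exon bases with other annotated genes on their strand, so their counts carry a similar limit. *HBZ* kept its call without each library in turn, while *HBG2* and *ALAS2* lost theirs without any 1 DMSO replicate (adjusted p from 0.0624 to 0.138 and from 0.0868 to 0.12, edgeR). Of 15 markers of other cells, 9 had at most 10 reads in every library, with *MS4A1* and *CSF1R* at 0, and 6 passed the filter, of which *CD3D*, *LYZ* and *COL1A1* were called higher in EZH2i. *COL1A1* kept its call without each library in turn. *CD3D* lost it without any 1 DMSO replicate or EZH2i replicate 1 (adjusted p from 0.051 to 0.148, edgeR), and *LYZ* lost it without any 1 library (0.053 to 0.16, edgeR) and with DESeq2 (adjusted p = 0.0867). For the whole list of 15, the summed level was 292 to 295 CPM in DMSO and 330 to 340 CPM in EZH2i. Most of that sum came from the epithelial markers *KRT19*, at a mean of 132 CPM with DMSO and 151 with EZH2i, and *EPCAM*, at 77.5 and 63.9 CPM, and from the T cell marker *CD3D*, at 63.8 and 88.0 CPM. The other T cell markers, *CD3E* and *CD2*, had at most 8 reads in any library. The part of these markers in the rise of *BCL2L1* was not tested.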

How the data were processed

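The authors aligned 3′ reads to hg38, counted them per Ensembl gene with HTSeq (version 0.11.2; the submitters' processing notes also name STAR 2.6.0c) and deposited raw counts for each of 6 libraries without pooling replicates. The strand setting is not given in the sources used here. A deposited table of the authors' own comparison (fold changes and p-values) was not used. Rows that name no gene (32.1% to 36.4% of listed reads) entered neither library sizes nor tests.

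Counts were tested in R 4.3.3 with edgeR 4.0.16: TMM scaling, filterByExpr (minimum count 10) and the quasi-likelihood functions glmQLFit and then glmQLFTest on group alone; the test is two-sided and p-values were adjusted by Benjamini-Hochberg across every gene tested, at a threshold of 0.05. The standard error is the log2 fold change divided by the square root of F, and 95% intervals use the fit's degrees of freedom. The code was tested on simulated data. For 1 gene, the smallest p that permuting 3 against 3 libraries allows is 0.1 (exact, two-sided). The methods describe separate cultures. Symbols, positions and exons came from GENCODE version 44 on GRCh38, the authors' build with another annotation (60401 of 60671 identifiers matched). Promoter sequence was that from RefSeq for GRCh38.p14; *BCL2L10*, *BCL2L2*, *BIK*, *BNIP3L*, *CASP1*, *CASP10*, *MCL1*, *TNFRSF10A*, *TNFRSF10B* and *TNFRSF10D* had no entry. Floors cover counting error only.

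The gene lists were chosen with earlier results of these data known. Among the 39 genes, values per library are given for any called, those tested whose groups do not overlap, the gene with the most CPM of each role group, and *BCL2L11*, *BBC3*, *PMAIP1*, *BMF*, *BIK* and *HRK*; of the other pathway genes, those called and the 5 with the largest absolute log2 fold change. *BCL2L12*, *CASP9*, *BIRC6*, *TNFRSF10B*, the upstream regulators and the markers were given values after these had been seen. Alternatives were DESeq2 1.42.0, RLE size factors, other filters on low counts, omission of each library in turn, and the replicate number as a block.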

Additional observations from a re-analysis of the deposited data

How the results depend on the processing

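The count of the 39 genes called stayed at 0 under all 11 alternatives (edgeR refits and DESeq2), while the genes called over the whole table went from 527 (78.4% higher) to 439 with DESeq2 (67.4% higher), 928 without a filter on low counts (579 higher, 349 lower) and 209 to 536 when a replicate was left out: 213, 209 and 240 without DMSO replicates 1, 2 and 3, where the cause of the fall was not tested. The count among the other pathway genes was 0 to 1 over those omissions, at 0 without DMSO replicate 1 or 2. Of the 30 tested genes, 15 kept their direction in all alternatives; the others had a main log2 fold change of at most 0.239 in size. Their ranges over the omissions were *MCL1* -0.409 to 0.019, *BCL2L2* -0.428 to 0.152, *BAK1* -0.138 to 0.079, *BAD* -0.128 to 0.095, *BID* -0.145 to 0.104, *BMF* -0.123 to 0.308, *BBC3* -0.211 to 0.080, *BCL2L11* -0.088 to 0.130, *CASP10* -0.007 to 0.153, *APAF1* -0.261 to 0.071, *CYCS* -0.065 to 0.121, *BIRC2* -0.107 to 0.035, *FADD* -0.071 to 0.166, *TNFRSF10A* -0.104 to 0.095 and *CFLAR* -0.141 to 0.063. Values near 0 also turned below it with DESeq2 (*BCL2L11* -0.012, *CYCS* -0.005, *FADD* -0.006, *TNFRSF10A* -0.011), without the filter (*BCL2L11* -0.019, *CYCS* -0.012, *FADD* -0.013, *TNFRSF10A* -0.017), with RLE size factors (*BCL2L11* -0.002, *TNFRSF10A* -0.001) and with the replicate block (*BCL2L11* -0.001). Same-numbered libraries did not deviate together (correlations -0.0668, -0.0202 and -0.0278), so the numbers were not taken as pairs; with the replicate block 599 genes were called in all and 0 of the 39.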

Other observations

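The position of EZH2i replicate 1 was also read for the 36 tested genes of the wider apoptosis list. It was the lowest of the 6 libraries for 10 of them (27.8%) and the highest for 7 (19.4%), against 24.3% and 23.9% of all genes tested. The genes for the voltage-dependent anion channels *VDAC1*, *VDAC2* and *VDAC3*, the mitochondrial pores that BCL2 family proteins contact, had log2 fold changes of 0.05, -0.09 and -0.10. The survivin gene *BIRC5* had 228 ± 14 CPM with DMSO and 209 ± 39.5 with EZH2i (SD, n = 3 per group), a log2 fold change of -0.12 that was 0.02 without EZH2i replicate 1. The adjusted p of these 4 genes ranged from 0.632 to 0.851 (edgeR). The ligand genes *FASLG*, *TNFSF10* and *TNF* had at most 3 reads in any library.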
